A study of Homo sapiens with 6 samples.

Results

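The comparison described here is of mRNA levels in 786-O cells, an established line of clear cell renal carcinoma that lacks functional VHL, between the RNA-seq library labelled WT and the one labelled EV. Its members are the 11032 named genes, of 19669 in the deposited table, that stood at 1 FPKM or more (a level scaled for the length of the transcript and the size of the library, so comparable between genes) in at least one of these 2 libraries. Of them 6587 reached 10 FPKM in one of the 2, and the account rests mainly on those. The WT library comes from cells given PHYHD1 according to the series title and the table's column name, although the design text calls a wild-type group untreated, and the EV library comes from cells carrying an empty vector. Another RNA-seq library, labelled MT, stands in the title for a PHYHD1 without residues 107 to 130. Matched Ribo-seq libraries hold the mRNA fragments covered by ribosomes. Values of these other libraries are given beside the genes they bear on. No source gives the vector, its promoter, or whether the cells are a clone or a pool. Each label has 1 library per assay, so no test, error or p-value is possible and each difference is between 2 libraries. With a single library no value says how far repeat cultures of one kind would differ.

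PHYHD1 belongs to the iron- and 2-oxoglutarate-dependent dioxygenases, enzymes that oxidize their substrates with molecular oxygen and turn 2-oxoglutarate into succinate. Relatives in this family hydroxylate fatty acid derivatives (PHYH), demethylate histones and nucleic acids, or, as the prolyl hydroxylases, mark hypoxia-inducible factors for VHL. In 786-O cells the last of these routes is interrupted, because VHL is lost, and HIF-2alpha (EPAS1) is stable in normal oxygen. PHYHD1 (ENSG00000175287.19) had 118 FPKM in the WT library, 109.5 FPKM in MT and 0.0920 FPKM in EV. The high value in WT goes with the column name and against a description of that group as untreated. Its Ribo-seq value was 222 TPM in WT and it was listed at 0 in EV, so the RNA is also covered by ribosomes in the cells labelled WT. The lineage markers fixed for the line were present in both libraries, with 75.9 FPKM in WT and 88.5 in EV for the renal transcription factor PAX8, and 1911 FPKM in WT and 1746 in EV for vimentin (VIM). All 10 of these markers reached 1 FPKM, whereas 0 of 4 endothelial, 1 of 5 leukocyte (CD68) and 2 of 5 fibroblast markers did. Of 8 proximal tubule markers 1 reached 1 FPKM, GGT1, with 66.1 FPKM in WT and 63.3 in EV. LRP2 and HNF4A of that list were listed at 0 in both libraries.

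Most mRNAs differed little. The log2 ratio of WT to EV, computed after adding 1 to each value, had a robust SD across genes of 0.24 among genes at 1 to 10 FPKM, 0.17 among those at 10 to 100 and 0.13 among those at 100 or more, with medians between -0.04 and 0.01. This spread mixes real differences with measurement error, and it shrinks with level. At least 2-fold differences were shown by 26 genes upward and 29 downward, 0.236% and 0.263% of the 11032. Among the 6587 genes at 10 FPKM or more 9 were higher (0.137%) and 6 lower (0.0911%), and 0 of 730 genes at 100 FPKM or more were lower by that much. A smaller step, WT 25% or more above EV or 20% or more below it on the same scale, was passed at 10 FPKM or more by 277 genes upward and 315 downward, which is 4.21% and 4.78%. These shares are the background against which the gene groups below are read. Of all 11032 genes 48.9% lay above 0 and 51.1% below. At 10 FPKM or more the gene just inside the 2-fold rule was SMPDL3A (log2 of -1.0003), and the one just outside was TRIM55 (0.97).

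**Figure D1:**
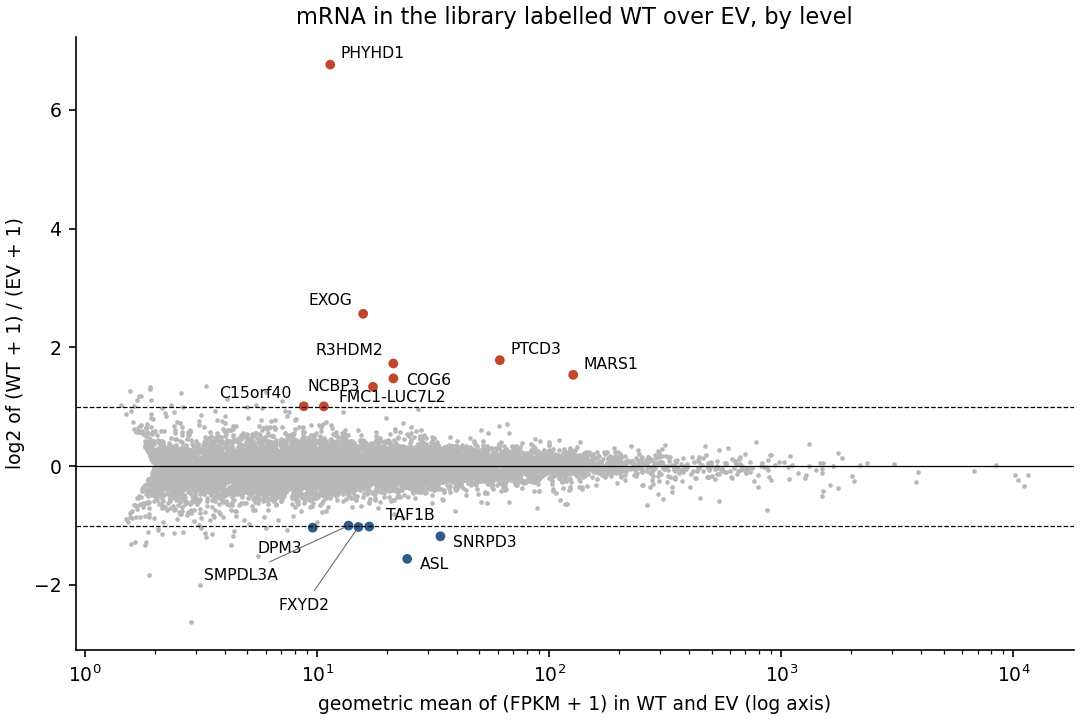
Difference in mRNA, as log2 of (WT + 1) over (EV + 1), against the geometric mean level of the 2 libraries on a log axis, with 1 point per gene at 1 FPKM or more and dashed lines at 2-fold. Coloured and named are the 9 genes higher and the 6 lower by 2-fold or more at 10 FPKM or more, with PHYHD1 at 6.76, and the cloud of other genes narrows as level increases.

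Among genes at 10 FPKM or more EXOG and PTCD3, both of mitochondria, had the largest differences after PHYHD1. EXOG, a nuclease of the inner mitochondrial membrane, had 37.4 FPKM in WT, 31.8 in MT and 5.48 in EV. PTCD3, a pentatricopeptide protein that joins the small mitochondrial ribosomal subunit, had 113 FPKM in WT, 90.02 in MT and 31.9 in EV. For both genes WT and MT stood together and EV apart, and the same held for C15orf40, at 11.4 FPKM in WT, 12.5 in MT and 5.17 in EV. The other genes of the mitochondrial gene expression list differed less. Among its 30 genes at 10 FPKM or more, EXOG and PTCD3 were the 2 past the smaller step upward (6.67%, against 4.21%). That share rests wholly on these 2 genes, which were named for their large ratios. In that list 0 passed the smaller step downward, while 35 of the 46 measured lay above 0 (median log2 0.12, against -0.01 over all genes). LRPPRC, which stabilizes mitochondrial mRNAs, had 67.3 FPKM in WT and 62.9 in EV.

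A second group of genes stood high in WT alone. MARS1, the methionyl-tRNA synthetase of the cytosol, had 215 FPKM in WT, 86.9 in MT and 73.4 in EV. COG6, a subunit of the tethering complex that organizes retrograde traffic in the Golgi, had 34.5 FPKM in WT, 10.9 in MT and 11.8 in EV. NCBP3, which binds the cap of mRNAs for export, had 26.6 FPKM in WT, 9.63 in MT and 9.94 in EV, and R3HDM2, a protein with an RNA-binding R3H domain, had 37.8 FPKM in WT, 13.1 in MT and 10.7 in EV. In all of these MT lay much nearer to EV than to WT. Their partners did not share the difference: the other 7 COG subunits stayed within the smaller step, and among 23 synthetases and scaffold proteins at 10 FPKM or more the scaffold gene AIMP2 (49.8 FPKM in WT and 39.6 in EV) was the other one past it. The readthrough name FMC1-LUC7L2 also passed 2-fold (14.1 FPKM in WT and 6.53 in EV), but it shares reads with its 2 parent genes and is uncertain.

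Among the genes lower in WT, enzymes and core RNA factors stood beside membrane proteins. ASL, which splits argininosuccinate into arginine and fumarate, had 13.2 FPKM in WT, 13.7 in MT and 40.9 in EV. SNRPD3, a ring protein of the spliceosomal small nuclear RNPs, had 21.6 FPKM in WT, 20.3 in MT and 50.1 in EV, and TAF1B, a factor that brings RNA polymerase I to ribosomal DNA, had 10.8 FPKM in WT, 9.92 in MT and 22.8 in EV. For these genes EV stood apart from the other 2 libraries. FXYD2, the gamma subunit of the sodium pump in kidney tubules, was low in WT alone, with 9.55 FPKM in WT, 23.2 in MT and 20.5 in EV. It is also 1 of 6 markers fixed for tubule cells other than proximal ones, which summed to 13.1 FPKM in WT and 26.4 in EV. FXYD2 itself makes up most of both sums, so they mainly repeat its own values. CDH16 was the other marker of that list at 1 FPKM or more, with 3.48 FPKM in WT and 5.89 in EV. UMOD, SLC12A1 and AQP2 were listed at 0, and the part of such cells in the value of FXYD2 was not tested. DPM3, which anchors the synthase of dolichol phosphate mannose, the mannose donor of glycosylation in the endoplasmic reticulum, had 5.68 FPKM in WT, 8.36 in MT and 12.7 in EV. SMPDL3A, a secreted phosphodiesterase related to acid sphingomyelinase, had 8.64 FPKM in WT, 10.7 in MT and 18.3 in EV. The WT and MT comparisons use the same EV library, so a low or high value in EV alone enters both.

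**Figure D2:**
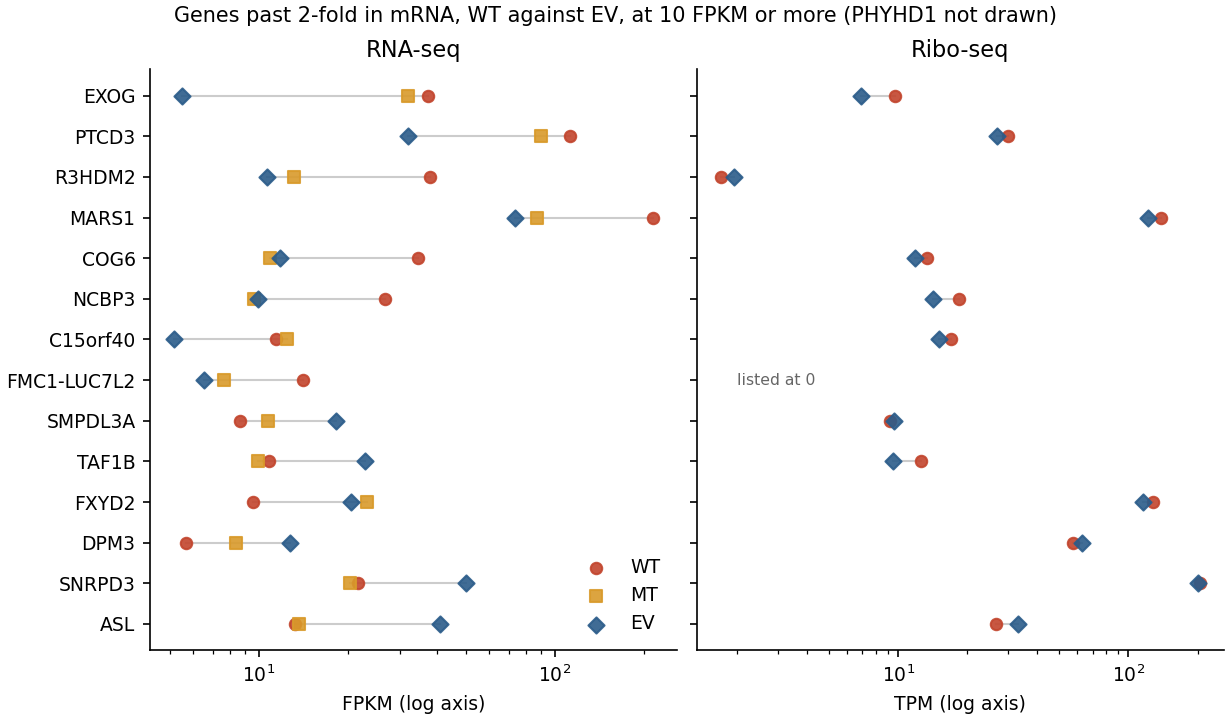
Values of the 14 genes other than PHYHD1 that passed 2-fold at 10 FPKM or more, on log axes, in the RNA-seq libraries labelled WT, MT and EV (left, FPKM) and in the Ribo-seq libraries labelled WT and EV (right, TPM), 1 point per library. EXOG, PTCD3, C15orf40, TAF1B, SNRPD3 and ASL have EV apart from WT and MT, whereas R3HDM2, MARS1, COG6, NCBP3 and FXYD2 have WT apart. In Ribo-seq the points of a gene lie closer together, but the genes were chosen by their mRNA ratio. FMC1-LUC7L2 was listed at 0 in Ribo-seq.

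Below 2-fold after adding 1 to each value, 11 further genes completed the 20 highest at 10 FPKM or more. TRIM55, a ubiquitin ligase known from muscle, had 36.9 FPKM in WT and 18.4 in EV, and the secreted guidance factor SEMA3C had 16.7 in WT and 8.43 in EV. The AP-1 subunit FOSL1 had 75.4 FPKM in WT and 47.1 in EV, MAP2K3, a kinase that activates p38, had 10.9 in WT and 6.36 in EV, and the corepressor RCOR1 had 11.9 in WT and 6.95 in EV. Log2 ratios of these genes ran from 0.67 (FOSL1) to 0.97 (TRIM55). The others among the 20 highest were CCDC86, ZNF286A, AP1S3 and ARHGAP23 (0.70 to 0.80) and the copper- and zinc-binding metallothionein MT1E (0.71). SMN2 was in the list too (0.73), but SMN1 is a near-identical copy and the value is uncertain. MT1E also has close relatives.

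Downward, 14 further genes completed the 20 lowest. EMC2, a subunit of the complex that inserts proteins into the endoplasmic reticulum membrane, had 16.4 FPKM in WT, 20.8 in MT and 30.8 in EV, and TRAPPC2L, of the vesicle-tethering TRAPP complexes, had 15.2 in WT, 14.6 in MT and 27.3 in EV. AMACR, the peroxisomal racemase that prepares branched fatty acids for oxidation, had 29.2 FPKM in WT, 60.2 in MT and 50.2 in EV. CD24, a glycosylated surface protein of epithelial progenitors, was among the most abundant mRNAs, at 667 FPKM in WT, 1186 in MT and 1112 in EV; pseudogene copies of CD24 may share its reads. Thus EMC2 and TRAPPC2L in MT were nearer to WT, and AMACR and CD24 in MT were nearer to EV or beyond it. FILIP1L, BEND6, FAM149A, PRR11, DDX19B, NUDT6, HCFC1R1, PNRC1 and MAP3K4 were the others, with log2 ratios of -0.78 to -0.68, next to the readthrough name COMMD3-BMI1 (-0.93).

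Heat shock genes, whose products fold new and damaged proteins and are controlled by the factor HSF1, lay mostly above 0. Of 35 members measured 31 lay above 0, with a median log2 of 0.21, and 6 of 35 at 10 FPKM or more passed the smaller step upward (17.1%, against 4.21% of all genes) while 0 passed it downward. HSPA8, the constitutive HSP70, had 893 FPKM in WT, 777 in MT and 676 in EV. HSPH1, the exchange factor that recharges HSP70, had 127 FPKM in WT, 109.7 in MT and 93.2 in EV, and DNAJA1, an HSP40 partner, had 147 in WT, 130.0 in MT and 117 in EV. WT was highest in each of these and EV lowest, with MT between. The inducible HSP90 gene HSP90AA1 had 651 FPKM in WT and 526 in EV, and the immunophilin FKBP4 had 68.00 in WT and 52.5 in EV. HSPA1A and HSPA1B are near-identical copies, so their values (log2 of 0.38 and 0.34) are uncertain. In Ribo-seq the list had a median log2 of 0.14, against 0.04 over all genes at 10 FPKM or more, with 436 TPM in WT and 445 in EV for HSPA8 and 279 TPM in WT and 154 in EV for FKBP4.

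HSF1 binds heat shock elements, arrays of inverted GAA units. Such an element, read as GAA, NN, TTC, NN and GAA in a row with N for any base, was searched on both strands in the 250 bases before the start of genes in RefSeq (GRCh38.p14). It was in 0.441% of 35116 such windows, and 6 of 31 heat shock genes at 10 FPKM or more with a window carried it. These 6 were HSPA8, HSP90AA1, HSP90AB1, CHORDC1, HSPD1 and DNAJB6, with log2 ratios from -0.00 (DNAJB6) to 0.40 (HSPA8). Of these 6, 1 passed the smaller step upward, HSPA8. Over all 27 genes at 10 FPKM or more with the element the median log2 ratio was 0.04, and 2 of them passed the smaller step upward (7.41%). Of the 5500 genes without it 4.15% did. The bases around the element nearest to the start are shown, 5′ to 3′ on the strand of the gene, for 3 of the most abundant mRNAs of the group that carry it, with the element in capitals.
HSPA8 (chr11:123062149-123062221, minus strand): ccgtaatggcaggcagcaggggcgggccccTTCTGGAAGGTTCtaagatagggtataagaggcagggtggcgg
HSP90AA1 (chr14:102087090-102087162, minus strand): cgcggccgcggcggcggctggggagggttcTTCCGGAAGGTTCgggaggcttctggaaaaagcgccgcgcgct
HSP90AB1 (chr6:44247801-44247873, plus strand): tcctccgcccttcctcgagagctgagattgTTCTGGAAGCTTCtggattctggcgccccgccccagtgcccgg
In HSPA8 this element begins 55 bases before the start, in HSP90AA1 88 and in HSP90AB1 112. A match in the letters is a description and not a site shown to be bound. An E-box (CACGTG) and a CArG box (CCWWWWWWGG, with W for A or T) were searched in the same windows. Of genes with an E-box 4.30% passed the smaller step upward, against 4.14% without it. For the CArG box these shares were 4.65% and 4.15%.

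Ribosome biogenesis genes had the highest share past the smaller step upward among the 40 lists. They encode the machinery that transcribes, cuts, modifies and assembles ribosomal RNA in the nucleolus. Of 51 at 10 FPKM or more 17 passed the smaller step upward (33.3%, against 4.21%) and 1, TAF1B, downward, and 51 of 57 measured lay above 0 (median 0.25). MRTO4, an assembly factor of the large subunit, had 31.96 FPKM in WT, 26.6 in MT and 22.2 in EV. NOP56, of the box C/D particles that methylate ribosomal RNA, had 70.7 FPKM in WT, 56.2 in MT and 52.9 in EV, and DDX21, an RNA helicase of the nucleolus, had 112 in WT, 90.7 in MT and 86.9 in EV. WT was above both other libraries in each. PES1 and BOP1, partners in maturation of the large subunit, had log2 ratios of 0.43 and 0.41, and the small-subunit factors BYSL, PNO1 and TSR1 had 0.47, 0.43 and 0.40. NAT10, which acetylates cytidines of ribosomal and transfer RNA, had 17.5 FPKM in WT and 12.97 in EV. The median of the list in MT over EV, which shares the EV library, was 0.05. In Ribo-seq of WT over EV it was -0.00, with NOP56 at 66.6 TPM in WT and 58.6 in EV and MRTO4 at 136 in WT and 145 in EV.

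Other genes of RNA and protein synthesis leaned the same way by less. Among tRNA modification enzymes 47 of 64 lay above 0 (median 0.14). Of 33 at 10 FPKM or more 4 passed the smaller step upward (12.1%, against 4.21% of all genes). They were NAT10, WDR4, which holds the methylase of tRNA guanosine 46 in place, YRDC and TRIT1. The value of WDR4 was 12.2 FPKM in WT and 8.72 in EV. Splicing and export genes had a median of 0.12, and 5 of 47 passed upward (10.6%, against 4.21%). Among them were LSM6 (0.52) and the splicing factor SF3A1 (0.35), whereas SNRPD3 passed downward. Initiation and elongation factors had a median of 0.11 with 39 of 48 above 0. Of 46 at 10 FPKM or more 2, EIF4A1 and EIF2S1, passed the smaller step upward (4.35%, against 4.21%). The helicase EIF4A1, which unwinds mRNA leaders for scanning, had 527 FPKM in WT, 451 in MT and 417 in EV, and EIF2S1, the alpha subunit of the factor that brings the initiator tRNA, had 42.1 in WT, 31.8 in MT and 32.9 in EV. WT was highest in both. Cytosolic ribosomal proteins leaned the other way, with 59 of 79 below 0 (median -0.06). Only RPS27 (-0.43) and RPL39 (-0.35) passed the smaller step downward, 2 of 79 (2.53%), a share below the 4.78% of all genes. S-phase genes had 41 of 48 above 0 (median 0.11), with the flap nuclease FEN1 (0.33) and the histone chaperone subunit CHAF1B (0.37) past the smaller step, 2 of 44 (4.55%). Proteasome genes had 29 of 38 above 0 (median 0.10), and 2 of 37, ADRM1 and PSMD12, passed it (5.41%). The shares of initiation and elongation, S-phase and proteasome genes are near the 4.21% of all genes.

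Targets of YAP and of TGF-beta, pathways that couple cell shape and matrix to gene expression, held 5 of 22 genes past the smaller step upward (22.7%, against 4.21%) and 0 downward. THBS1, a matrix glycoprotein that activates latent TGF-beta, had 61.6 FPKM in WT, 45.04 in MT and 39.99 in EV, and INHBA, which encodes the activin A subunit, had 13.4 FPKM in WT, 8.92 in MT and 8.27 in EV. WT was highest in both. The receptor kinase AXL had 111 FPKM in WT and 87.1 in EV, and the crosslinking enzyme TGM2 had 19.9 in WT and 14.9 in EV. In Ribo-seq the list's median was -0.16, with THBS1 at 263 TPM in WT and 331 in EV, so THBS1 was lower in WT there and higher in mRNA.

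Cytoskeletal and adhesion genes added abundant mRNAs to this side. Of 40 actin and contractile genes 32 lay above 0 (median 0.09). Of 38 at 10 FPKM or more 2, ACTG1 and TPM1, passed the smaller step upward (5.26%, near the 4.21% of all genes). ACTG1, the cytoplasmic gamma actin, had 1486 FPKM in WT, 1419.7 in MT and 1151 in EV, and tropomyosin TPM1 had 253 in WT, 207 in MT and 199 in EV. ACTB, often used as a constant reference, had 1889 FPKM in WT and 1619 in EV, whereas GAPDH had 2386 in WT and 2303 in EV. The hyaluronan receptor CD44 had 156 FPKM in WT, 112 in MT and 117 in EV, and CDH6, a cadherin of the proximal tubule and of renal carcinoma, was lower at 40.03 in WT, 75.6 in MT and 61.5 in EV. Matrix genes were split, with a median of 0.00 and 2 of 21 at 10 FPKM or more past the smaller step downward (9.52%, against 4.78%). These were fibronectin (FN1), at 255 FPKM in WT, 371 in MT and 374 in EV, and the collagen gene COL8A1, at 89.8 in WT, 126 in MT and 118 in EV. For both MT was close to EV or above it.

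Most mRNAs of the respiratory chain, from the mitochondrial and the nuclear genome, lay below 0, and few of the nuclear ones passed the smaller step. The 13 mitochondrially encoded mRNAs, which are translated inside the organelle, took 15.1% of the summed FPKM in WT and 16.8% in EV. Of them 12 lay below 0 (median -0.24) and 4 passed the smaller step downward (30.8%, against 4.78% of all genes). MT-CO2, a core subunit of cytochrome oxidase, had 9865 FPKM in WT, 10219 in MT and 12400.4 in EV, and MT-ND4L, of complex I, had 1251 in WT, 1345 in MT and 1769.8 in EV. EV was the highest library in both. Nuclear genes of the chain had 54 of 75 below 0 (median -0.08) and 7 of 72 past the smaller step downward (9.72%, against 4.78%). COX7B had 24.05 FPKM in WT, 29.1 in MT and 37.6 in EV, NDUFB3 had 40.96 in WT, 45.6 in MT and 56.8 in EV, and UQCRB had 107 in WT, 119 in MT and 138 in EV. NDUFA7, of complex I, went against its group with 29.8 FPKM in WT, 11.9 in MT and 19.8 in EV. In the citric acid cycle and the supply of pyruvate and glutamine 4 of 31 genes passed downward (12.9%, against 4.78%). These were IDH1, IDH2, the pyruvate carrier subunit MPC2 and PCK2 (-0.49 to -0.35). Glycolysis and pentose phosphate genes had 0 of 25 past the smaller step in either direction.

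Lists of lipid, peroxisome and lysosome genes lay mostly below 0. Of 33 genes of cholesterol and fatty acid synthesis at 10 FPKM or more 6 passed the smaller step downward (18.2%, against 4.78%) and 0 upward. SCD, which puts the double bond into stearate, had 94.2 FPKM in WT, 106 in MT and 147 in EV, the desaturase FADS2 had 104 in WT, 122 in MT and 138 in EV, and FDFT1, the squalene synthase, had 36.3 in WT, 40.7 in MT and 47.01 in EV. Peroxisome and fatty acid oxidation genes had 5 of 24 past it (20.8%), with catalase (CAT) at 14.03 FPKM in WT and 19.3 in EV and the import receptor PEX5 at 7.01 in WT and 10.1 in EV, beside AMACR. FTH1, the heavy chain of the iron store ferritin, had 1299 FPKM in WT, 1700.1 in MT and 1742 in EV. In the lysosome and autophagy list 38 of 52 lay below 0 (median -0.07), and GABARAP and GABARAPL1, which coat autophagosomes, had log2 ratios of -0.45 and -0.45. The metallothioneins of the metal and thiol list went the other way, MT2A with 356 FPKM in WT and 279 in EV. In Ribo-seq MT2A had 589.7 TPM in WT and 1128 in EV, which is the opposite direction.

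Targets of hypoxia-inducible factors differed in both directions, more often downward. Of 27 at 10 FPKM or more 6 passed the smaller step downward (22.2%, against 4.78% of all genes) and 2 upward (7.41%, against 4.21%). Of the 33 measured 21 lay below 0, with a median of -0.07. IGFBP3, which binds insulin-like growth factors, had 439 FPKM in WT, 677 in MT and 659.6 in EV, and the differentiation gene NDRG1 had 90.5 in WT, 99.8 in MT and 135 in EV. The 2-oxoglutarate dioxygenase JMJD6 (0.41) was among the higher ones. The defining genes of the pathway differed little, with EPAS1 at 16.5 FPKM in WT and 16.6 in EV, VHL at 14.5 in WT and 13.5 in EV, VEGFA at 63.7 in WT and 59.6 in EV, and cyclin D1 (CCND1) at 62.2 in WT and 68.8 in EV. Among the other 2-oxoglutarate dioxygenases JMJD6 and the prolyl hydroxylase EGLN2 (15.3 FPKM in WT and 11.1 in EV) passed the smaller step upward, and none of 30 passed it downward. PHYH, the peroxisomal relative of PHYHD1, had 25.2 FPKM in WT and 28.04 in EV.

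Interferon-stimulated genes had 34 of 46 below 0 (median -0.17). Of the 21 at 10 FPKM or more 2 passed the smaller step downward (9.52%, against 4.78% of all genes) and 0 upward. The ubiquitin-like modifier ISG15, 1 of these, had 34.3 FPKM in WT, 27.9 in MT and 44.4 in EV, so MT was the lowest library. Targets of p53 had 18 of 28 below 0 (median -0.15). Of 17 at 10 FPKM or more 2 passed the smaller step in each direction (11.8%, against 4.21% upward and 4.78% downward). PLK2 (0.45) and AEN (0.37) were higher and DDB2 (-0.45) and RPS27L (-0.43) lower. NF-kappaB genes showed 2 of 17 past the smaller step upward (11.8%), including the macrophage growth factor CSF1 (36.6 FPKM in WT and 25.9 in EV). In that list 1, BIRC2, passed downward (5.88%). Of the antigen presentation genes TAP2 alone passed it (0.37), and the light chain B2M had 833 FPKM in WT and 979 in EV.

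Other lists held few genes past the smaller step. None of 49 G2 and M phase genes, and none of 22 renal carcinoma driver genes, at 10 FPKM or more passed the smaller step, although 36 of 50 and 17 of 24 measured lay above 0. In each of the lists of endoplasmic reticulum folding, Golgi and vesicle traffic, immediate early genes, and N-glycan and GPI synthesis, 1 or 2 genes passed the smaller step in all, with medians between -0.06 and 0.07. ATF4 targets had a median of 0.03 and 3 of 26 past it downward (11.5%, against 4.78%), and mitochondrial ribosomal proteins a median of 0.07. The arginine and polyamine list, which holds ASL, had a median of 0.00 and 1 of 16 past it upward and 2 downward (12.5%), with ODC1, the first enzyme of polyamine synthesis, at 79.8 FPKM in WT and 62.6 in EV and SAT1, which acetylates polyamines for export, at 11.2 in WT and 15.8 in EV. Of 29 serine, one-carbon and nucleotide genes at 10 FPKM or more 2 passed upward (6.90%, against 4.21%), NT5E (0.59) and the purine enzyme PFAS (0.41). In that list 1, SHMT1 (-0.40), passed downward (3.45%, against 4.78%). In the list of ion pumps and channels ORAI1 (0.39) passed upward, 1 of 27 genes (3.70%, against 4.21%). FXYD2 and CLCN3 (-0.34) passed downward there (7.41%, against 4.78%). In that of integrins and adhesion receptors L1CAM (0.44) passed upward beside CD44, 2 of 19 genes (10.5%, against 4.21%). CDH6 (-0.61) passed downward, 1 of 19 (5.26%, against 4.78%), with the largest difference of that list. Receptor tyrosine kinases had 14 of 18 above 0, and 2 of 8 at 10 FPKM or more passed upward, EPHA2 (0.34) and AXL, a share of 25% that rests on few genes.

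**Figure D3:**
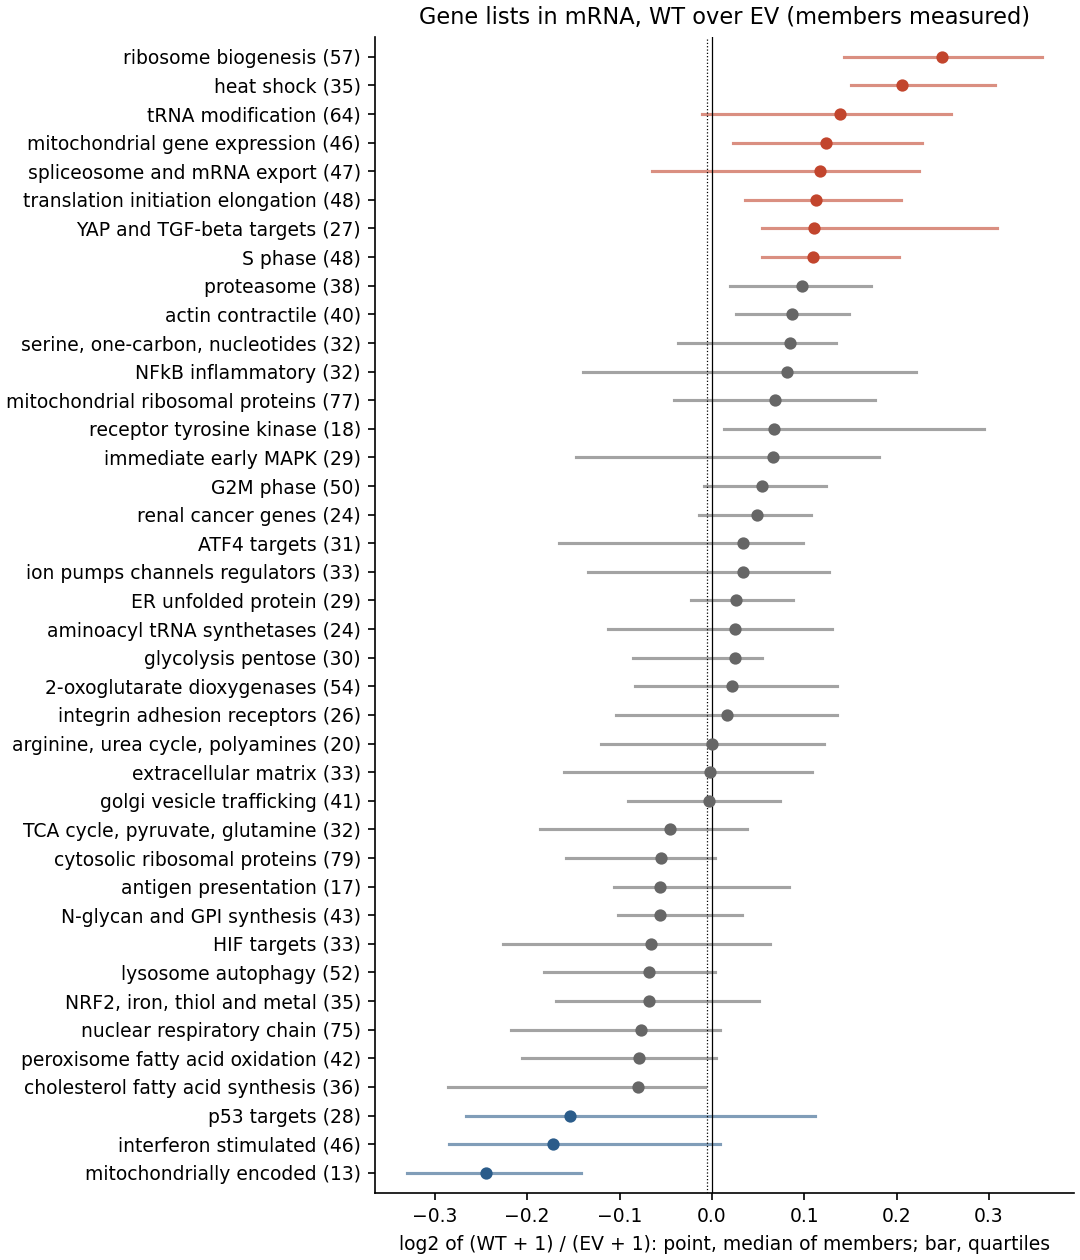
Median log2 of (WT + 1) over (EV + 1) in mRNA for the 40 gene lists (points), with the quartiles of their members (bars) and the number of members measured in brackets; the dotted line is the median of all genes and colour marks medians at 0.1 or more from 0. Ribosome biogenesis (0.25) and heat shock (0.21) are at the top, and mitochondrially encoded mRNAs (-0.24) at the bottom.

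In absolute terms the largest differences downward were mitochondrial. The 5 lowest values of WT minus EV belonged to the mitochondrially encoded MT-CO2, MT-ATP6, MT-CO1, MT-CO3 and MT-CYB, from -2536 to -694 FPKM. With PHYHD1 set aside, the 5 highest were those of ACTG1, ACTB, HSPA8, VIM and MARS1, from 142 to 336 FPKM. Among genes at 100 FPKM or more the 10 highest ratios included those of PHYHD1, PTCD3 and MARS1 and, from 0.37 to 0.45, of PLK2, HSPH1, CD44, the caveolar coat gene CAVIN1, HSPA8 and ACTG1. The 10 lowest were CD24, PRR11, CACYBP, SCD, ANXA4, IGFBP3, NDRG1, FN1, SPP1 and MT-ND4L (-0.74 to -0.50). CACYBP, a partner of S100 proteins in ubiquitination, had 209 FPKM in WT, 263 in MT and 329 in EV. The epithelial genes annexin A4 (ANXA4) and osteopontin (SPP1) had 92.5 in WT, 166 in MT and 144 in EV, and 368 FPKM in WT, 514 in MT and 533 in EV, low in WT alone.

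Genes at 1 to 10 FPKM rest on fewer reads and gave 17 of the 26 higher and 23 of the 29 lower genes past 2-fold, together 0.900% of the 4445 genes in that range. Upward, the matrix gene tenascin C (TNC) had 8.29 FPKM in WT, 3.46 in MT and 2.91 in EV, and the collagen gene COL6A3 had 2.95 in WT, 1.15 in MT and 0.690 in EV. CEMIP, which degrades hyaluronan, had 1.63 FPKM in WT and 0.160 in EV. Downward, the phospholipase LIPH had 0.565 FPKM in WT, 0.631 in MT and 5.25 in EV, the phosphatase regulator PPP1R3F had 1.68 in WT, 2.94 in MT and 5.74 in EV, and LAD1, an anchoring filament protein, had 0.0550 in WT, 1.87 in MT and 1.55 in EV. TNC and COL6A3 were high in WT alone, and LIPH was low in both WT and MT. The remaining genes among the 8 at each end were readthrough names (HSPE1-MOB4, TIMM23B-AGAP6, PPAN-P2RY11, RPL36A-HNRNPH2, INO80B-WBP1 and RNASEK-C17orf49) or members of the NPIPA and SPDYE2 families of near-identical copies, which are uncertain.

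Among genes past the smaller step in mRNA, the share with the same direction in Ribo-seq was close to or below that of all genes. Of the 277 genes past the smaller step upward in mRNA 272 were measured in Ribo-seq, at 1 TPM or more in WT or EV. Of these 131 (48.2%, exact binomial 95% interval 42.1 to 54.3) lay above 0 there, against 55.8% of all 6531 genes measured in both assays. Such an interval treats genes as independent and does not cover how far repeat cultures would differ, so it gives no test. Of 306 genes lower in mRNA 133 (43.5%, 37.8 to 49.2) lay below 0 in Ribo-seq, against 44.2% of all genes. The median Ribo-seq log2 ratio was -0.01 for the genes higher in mRNA and 0.05 for the genes lower in mRNA, while their mRNA medians were 0.40 and -0.41. At 1.5-fold in mRNA the shares were 50% of 30 and 47.1% of 34 genes. Of the 13 genes other than PHYHD1 that passed 2-fold at 10 FPKM or more and were measured in Ribo-seq, 9 had the same sign there, with smaller log2 ratios than in mRNA. All these genes were chosen by the size of their mRNA ratio. Smaller ratios in another assay can come from that choice alone, and its part was not tested. PTCD3 had 29.9 TPM in WT and 26.96 in EV, and MARS1 had 139 TPM in WT and 122 in EV, both in the direction of their mRNA. SNRPD3, lower in mRNA, had 205 TPM in WT and 200.4 in EV. Among genes at 10 FPKM or more PHYHD1 was farthest from 0 in both assays. Read totals of the Ribo-seq libraries are not known, and the part of counting error in this comparison was not tested.

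**Figure D4:**
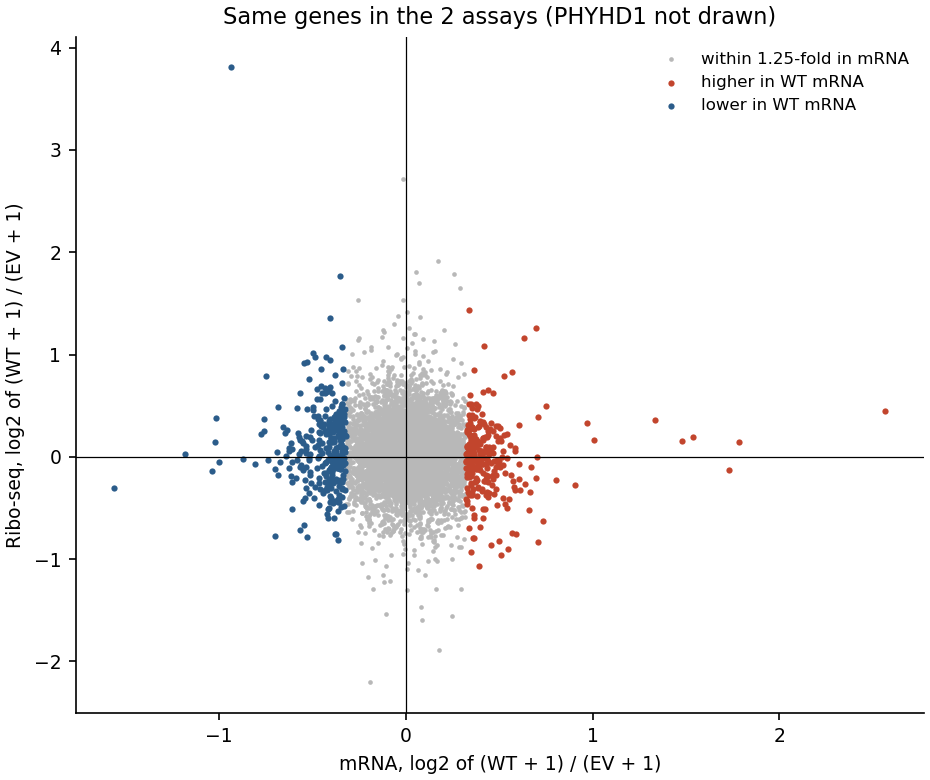
Log2 of (WT + 1) over (EV + 1) in Ribo-seq against the same in mRNA, 1 point per gene at 10 FPKM or more in mRNA and 1 TPM or more in Ribo-seq, with genes past the smaller step in mRNA (25% higher or 20% lower) coloured. The coloured points spread about 0 on the Ribo-seq axis on both sides, with 48.2% of the higher genes above 0 and 43.5% of the lower genes below it.

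Genes of chromosomes 17 and 21 lay above 0 more often than those of other autosomes, a pattern described after the values were seen. Of the 6587 genes at 10 FPKM or more 6336 were placed on an autosome by their symbol in RefSeq. On chromosome 17 the median log2 ratio of WT over EV was 0.10 and 272 of 390 genes (69.7%) lay above 0, and on chromosome 21 it was 0.13 with 46 of 66 (69.7%). The medians of the other 20 autosomes ran from -0.03 to 0.05, with 38.9% to 61.6% of genes above 0. On chromosome 17 34 genes passed the smaller step upward (8.72%, against 4.21%) and 12 downward, among the first ACTG1, ARHGAP23 and RFLNB. In gene order along the chromosome, runs of 30 neighbours had medians from 0.01 to 0.15. The lowest of these runs, from CHD3 to ALDH3A2, had 16 of 30 genes above 0 and a median no higher than the 0.01 of all genes at 10 FPKM or more. In MT over EV, which shares the EV library, chromosome 17 had a median of 0.10 and chromosome 21 of 0.03. In Ribo-seq of WT over EV the medians were 0.09 for chromosome 17 and 0.03 for chromosome 21, within the -0.11 to 0.14 of the others. Without chromosome 17 the medians of the ribosome biogenesis and heat shock lists were 0.24 and 0.22.

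**Figure D5:**
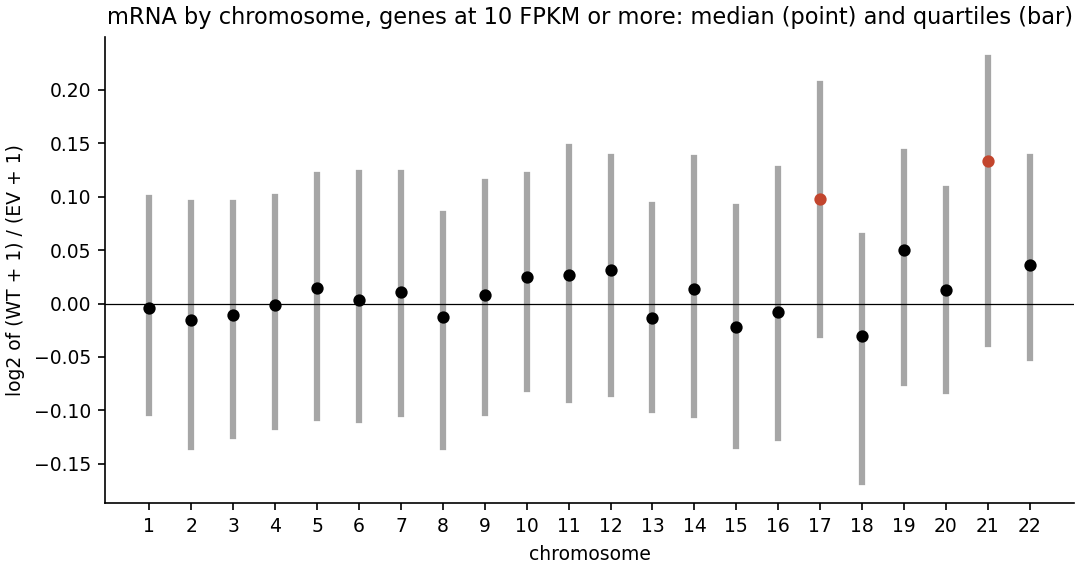
Median (points) and quartiles (bars) of log2 of (WT + 1) over (EV + 1) in mRNA for genes at 10 FPKM or more on each autosome. Chromosomes 17 (0.10) and 21 (0.13), in colour, stand above the others, which lie between -0.03 and 0.05.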

How the data were processed

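RNA-seq and Ribo-seq values of 6 libraries came from one deposited table of 20307 rows. Headers name no unit for RNA-seq. Its deposited values were read as FPKM made by the authors, since their sums lie at 459938 in WT and 469859 in EV, although TPM of a wider annotation could look alike. The deposited Ribo-seq columns, each summing to 1000000, were read as TPM. The submitters' processing notes name human genome build 18; the aligner, counting method and annotation were not given in the sources used here, nor was any pooling of the 3 dishes per condition. Depth is unknown.

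Rows without a gene name (605) and 7 symbols on several rows with unlike values were left out, leaving 19669 genes. Differences are log2((WT + 1)/(EV + 1)) for genes at 1 or more in one of both libraries, which shrinks ratios at low levels. Differences were called by size alone (2-fold, or at 10 or more 25% higher or 20% lower), as 1 library a label allows no test. Named genes are the extremes (20 per end at 10 or more, 10 at 100 or more, 8 at 1 to 10, 5 by FPKM), up to 4 leading and 2 abundant members of each of 40 lists, and references. Other names (further list members past the smaller step, promoter matches, markers, PHYH, LRPPRC) were chosen after their values were seen. Members and lists were chosen with earlier results of these data known, and the chromosome and promoter descriptions after the values were seen. The calculation was tested on simulated data. Other pseudocounts, minimums, scalings and thresholds were tried. Python 3.11.15, pandas 2.3.3 and scipy 1.17.1 were used. Some named genes that the rule gives are not reported here.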

Additional observations from a re-analysis of the deposited data

Results flagged for a closer look

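PHYHD1 stood at 905 TPM in the Ribo-seq library labelled MT, which enters no comparison of the report, against 0 listed in EV. It is given because the signal lies outside the mRNA comparison of WT with EV.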

How the results depend on the processing

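No paired analysis was possible because each label has 1 library per assay, and for the same reason no replicate could be left out. The count of genes past 2-fold in mRNA, 26 higher and 29 lower in WT, was 72 and 105 with a pseudocount of 0.1, 7 and 3 with a pseudocount of 5, 9 and 6 with a minimum of 10 FPKM, and 119 and 171 with a threshold of 1.5-fold. With no minimum, with ratios centred on their median, with libraries rescaled without the mitochondrially encoded genes, and without chromosome 17 (added after the data were seen), it stayed within 1.5 times of the count above. None of the 40 list medians moved by 0.1 or more under these settings, and none of the 11 at 0.1 or more from 0 changed sign. Of the named genes TRIM55 and COMMD3-BMI1 passed 2-fold with a pseudocount of 0.1, and SMPDL3A fell just short of it after rescaling. The share of mRNA-changed genes with the same sign in Ribo-seq stayed inside its binomial interval at a minimum of 10 in both assays and at 1.5-fold. That interval treats genes as independent. Genes near 1 FPKM rest on few reads, and read totals are not known.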

Other observations

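Some genes outside the lists are given here as values. Among genes at 10 FPKM or more, nucleolar and RNA-processing genes outside the ribosome biogenesis list, picked after their values were seen, included CCDC86 with 25.2 FPKM in WT and 14.01 in EV, LYAR with 28.4 in WT and 19.2 in EV, CCDC137 with 26.8 in WT and 17.6 in EV, and POP4, of RNase P and MRP, with 20.9 in WT and 13.7 in EV. GEMIN4, of the SMN complex that assembles the spliceosomal particles, had 13.05 FPKM in WT and 8.67 in EV. Epithelial and secreted genes picked in the same way were lower, namely clusterin (CLU) with 53.6 FPKM in WT, 87.6 in MT and 82.1 in EV, complement factor I (CFI) with 27.4 in WT, 43.6 in MT and 41.3 in EV, the potassium channel subunit KCNJ16 with 12.5 in WT, 19.8 in MT and 19.7 in EV, and the scaffold of tubule transporters PDZK1 with 76.9 in WT, 131 in MT and 103 in EV. In these genes MT stood with EV or above it. As they were chosen by their difference, they carry no weight for either group as a whole.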
